A study of Mus musculus with 36 samples.

Results

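Interferon-stimulated antiviral genes were followed across caspase-8 mutant mouse intestines and fibroblasts as a module of 45 genes, out of 52636 genes counted in every library. The 45 symbols were taken from a list of genes known to be induced by interferon and were matched to the Ensembl identifiers of the gene tables, and all 45 were found in all 36 libraries. No expression threshold entered the choice, but it was made with earlier results of these data known. Shares of all genes set beside the module are therefore descriptive. RNA sequencing was done on whole intestines of E18.5 embryos, in a D387A set of 18 libraries and a C362A set of 12, and on 6 libraries of mouse embryonic fibroblasts (MEFs). Every genotype had 3 libraries, labelled as biological replicates.

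The D387A set compared Mlkl-/- controls with Casp8 1xDA/1xDA embryos, with the mutant Casp8 1xDA/1xDA Cflar-/- Mlkl-/-, and with that mutant lacking also Casp1, Casp1 and Ifnar1, or Casp1 and Fadd; the last 4 are called Cflar-deficient, Casp1-deficient, Ifnar-deficient and Fadd-deficient embryos here. 1xDA is the D387A change, which blocks cleavage of caspase-8 between its catalytic subunits, Cflar encodes cFLIP, the partner and regulator of caspase-8, and MLKL is the executioner of necroptosis. The Casp8 1xDA/1xDA embryos kept Mlkl, whereas every other genotype in all 3 sets lacked it. The C362A set, in which caspase-8 is catalytically inactive, compared Mlkl-/- controls with Casp8 C362A/C362A Mlkl-/- (C362A Mlkl), Casp8 C362A/C362A Mlkl-/- Casp1-/- (C362A Casp1) and Casp8 C362A/C362A Cflar-/- Mlkl-/- (C362A Cflar) embryos. The MEFs were Mlkl-/- controls and Casp8 1xDA/1xDA Cflar-/- Mlkl-/- mutants, grown from embryos without head and organs. Nothing in the labels limits a deletion to a tissue, the Cflar deletion of the D387A line descended from 1 founder mouse, and the C362A line carried a separate Cflar deletion. No group lacked Casp1, Ifnar1 or Fadd on a caspase-8 wild-type background, so the effect of those losses alone was not measured.

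Type I and type III interferons bind surface receptors, JAK kinases become active there, and a complex that holds IRF9 then binds the interferon-stimulated response element of target promoters. Interferon-γ has a receptor of its own and acts through the gamma-activated site. The proteins made from the target genes block viruses at entry, translation, replication and release. In the adult mouse intestine the epithelium responds mainly to type III interferon while cells beneath it respond to type I. IFNAR1 is a chain of the type I receptor only.

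Reads on genes ranged from 17943524 to 32307629 per library. Casp1 was at 0.212 CPM (reads scaled to sequencing depth after TMM, a correction for library composition) or less in every Casp1-deficient D387A library, Fadd at 1.01 CPM or less in the Fadd-deficient and Ifnar1 at 37.9 CPM or less in the Ifnar-deficient embryos, against at least 42.6, 36.3 and 76.1 CPM in the other D387A embryos. Cflar was at 4.30 to 7.55 RPKM (reads scaled to gene length and the same depth) in the D387A genotypes labelled Cflar-/- and 5.80 to 6.42 RPKM in their controls. Mlkl was at 2.39 to 2.67 RPKM in the D387A controls labelled Mlkl-/- and 3.13 to 31.2 RPKM in the mutants that share that label. The gene tables do not place reads within a gene, so these levels did not check either deletion. Summed markers of intestinal epithelium stood at 3341 to 5462 CPM in intestines and 40.5 to 67.6 CPM in MEFs, where fibroblast markers reached 22772 to 25910 CPM. The D387A controls and Cflar-deficient embryos shared a number in their library titles and the other D387A genotypes carried different ones. What the number stands for is not stated, and it cannot be told apart from genotype.

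One library stood apart. The third Casp1-deficient embryo was above both others of its genotype for 45 of 45 genes, by a median factor of 3.46 over their mean and a range of 1.33 for Ifi27 to 9.54 for Oas3. In that group the highest library exceeded the lowest by a median of 4.14 times per gene, whereas the medians of the other 11 groups lay between 1.2 and 1.92. Its Casp1 level of 0.191 CPM did not go against its label. Its values fell within the range of the 3 Ifnar-deficient embryos for 22 genes, above it for 10 and below it for 13. Counts over the 45 genes that use this genotype are given with and without that embryo, and the single genes whose call against controls rested on it are named.

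Across the intestines, 44 of the 45 genes were called higher in at least 1 mutant, and the median level of the module differed between genotypes. A gene was called where its log2 fold change passed 1 or -1 and its p, adjusted by Benjamini-Hochberg over all genes of the set, was under 0.05 in edgeR's quasi-likelihood test. Changes are log2 fold changes against the controls of the same set unless another comparison is named, and SE is the standard error. Each library was summarised by the median over the 45 genes of log2 expression relative to the mean of its own controls. In MEFs the median was taken over the 41 genes that passed the filter on low counts. The D387A controls lay at -0.19, 0.29 and -0.16, the Casp8 1xDA/1xDA embryos at -0.09, 0.32 and -0.32 and the Cflar-deficient embryos at 1.85, 1.29 and 1.88. The Casp1-deficient embryos were at 0.62, 1.02 and 2.92, the Ifnar-deficient at 2.93, 3.01 and 3.23 and the Fadd-deficient at 3.56, 3.61 and 3.51. No Cflar-deficient, Casp1-deficient, Ifnar-deficient or Fadd-deficient library overlapped the controls, and the Ifnar-deficient and Fadd-deficient libraries all lay above the Cflar-deficient ones. The C362A controls lay at -0.46, 0.02 and 0.31, C362A Mlkl embryos at 3.83, 3.98 and 4.13, C362A Casp1 embryos at 4.52, 4.53 and 4.41 and C362A Cflar embryos at 2.87, 2.75 and 3.29. The 4 C362A genotypes did not overlap on this measure. In MEFs the controls lay at -0.42, 0.09 and 0.20 and the mutants at -0.74, 0.05 and -0.19, which overlapped. In whole tissue, a change in the number of expressing cells and a change in RNA per cell cannot be told apart.

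**Figure D1:**
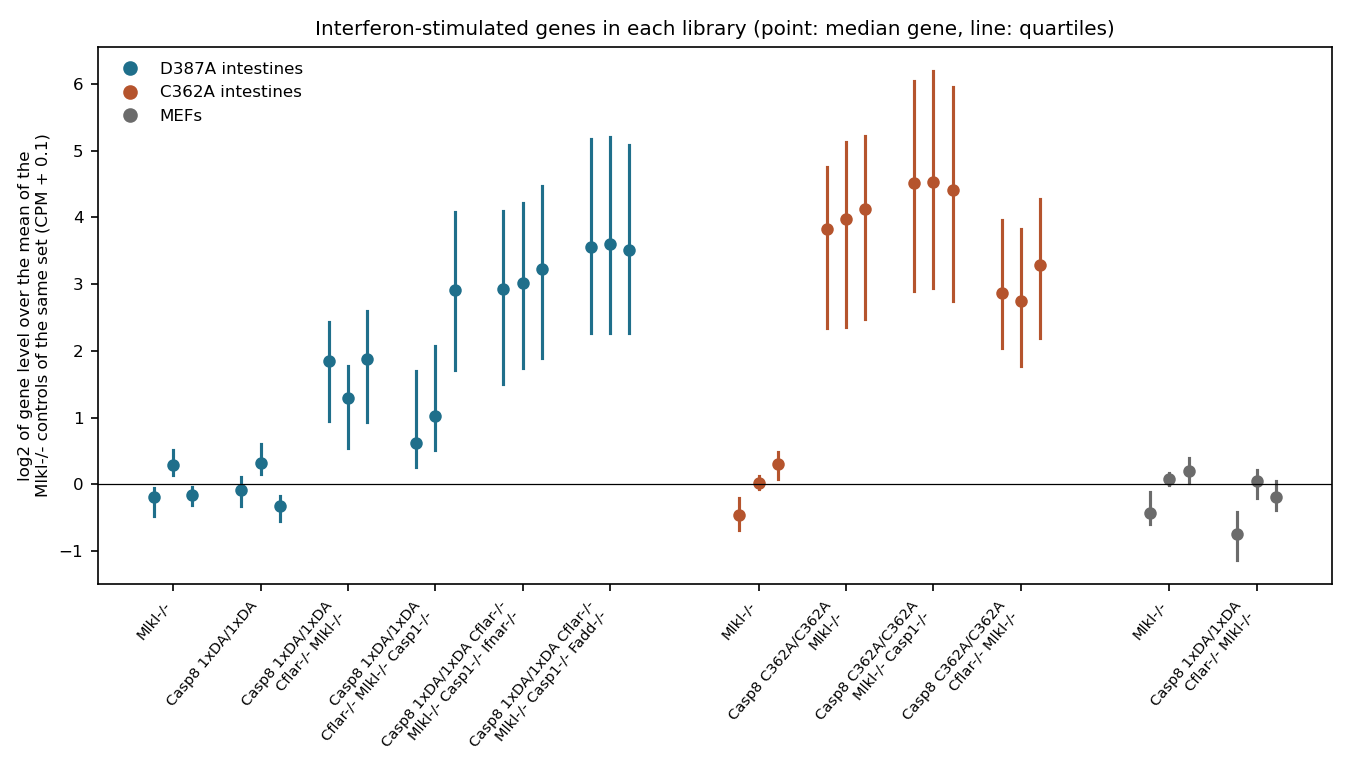
Each point is a library, plotted as the median over the 45 genes of log2 expression (CPM + 0.1) relative to the mean of the controls of the same set, with a line between the quartiles of the genes. MEF libraries are summarised over the 41 genes that passed the filter on low counts. Genotypes run along the horizontal axis and colours mark the sets. The third Casp1-deficient embryo, at 2.92, lies beside the Ifnar-deficient embryos, and the MEF genotypes overlap.

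The makeup of the module also shifted. By RPKM, which allows levels of different genes to be compared, Lgals3bp held the largest share in controls, at 19.9% of the summed RPKM of the 45 genes in the D387A controls and 22.6% in the C362A controls. Isg15 led instead in the Ifnar-deficient (22.1%), Fadd-deficient (19.3%), C362A Mlkl (17.4%), C362A Casp1 (21.9%) and C362A Cflar embryos (15.4%), and Ifitm3 in the Cflar-deficient embryos (19.2%). In the Casp1-deficient embryos Isg15 led in the mean, at 13.8%, but in the first and second embryos Lgals3bp, at 169 and 205 RPKM, was above Isg15, at 151 and 186 RPKM. In MEFs Ifitm3 made up 57.6% of the total in controls and 61.3% in mutants. RPKM was scaled within each set, so levels in different sets are not exactly comparable.

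IFIT proteins bind RNA that lacks the marks of host messenger RNA and block its translation. Ifit1 stood at 26.7, 49.3 and 23.8 RPKM in the D387A controls, 32.3, 49.0 and 28.7 in the Casp8 1xDA/1xDA embryos and 57.1, 29.0 and 53.2 in the Cflar-deficient embryos. Ifit1 reached 65.4, 90.3 and 247 RPKM in the Casp1-deficient, 233, 244 and 286 in the Ifnar-deficient and 392, 414 and 394 in the Fadd-deficient embryos. Ifit1 in the C362A set was at 12.0, 19.7 and 26.3 RPKM in controls, 215, 208 and 273 in C362A Mlkl, 422, 407 and 372 in C362A Casp1 and 79.9, 66.7 and 159 in C362A Cflar embryos. The Cflar-deficient embryos overlapped their controls, whereas every Casp1-deficient, Ifnar-deficient, Fadd-deficient and C362A mutant embryo lay above all controls of its set. MEFs held Ifit1 at 1.34, 2.37 and 3.79 RPKM in controls and 1.18, 2.74 and 2.01 in mutants, which overlapped. The change of Ifit1 in the Cflar-deficient embryos was 0.48 ± 0.39 (SE, adjusted p = 0.299), below the calling threshold, and that of Ifit3 was 1.08 ± 0.52 (SE, adjusted p = 0.0848). Ifit2 rose by a log2 fold change of 2.45 and Ifit3b by 2.23 in the same embryos, so 2 of the 4 IFIT genes were called there. All 4 were called in each of the other mutant intestines except Casp8 1xDA/1xDA, and they reached 7.32 for Ifit2 and 7.36 for Ifit3b in C362A Casp1 embryos. Ifit3 and Ifit3b share 51.2% and 45% of their 50-base exonic words with each other or other genes, and since reads that mapped to more than 1 place were not counted, the levels of this pair are uncertain.

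ISG15 is a ubiquitin-like protein that is attached to other proteins after interferon. Isg15 stood at 23.3, 48.7 and 28.4 RPKM in the D387A controls, 23.8, 51.5 and 18.4 in the Casp8 1xDA/1xDA embryos and 317, 165 and 327 in the Cflar-deficient embryos. Isg15 reached 151, 186 and 1257 RPKM in the Casp1-deficient, 1096, 1523 and 1787 in the Ifnar-deficient and 2070, 2042 and 1679 in the Fadd-deficient embryos. Isg15 in the C362A set was at 6.86, 16.8 and 22.1 RPKM in controls, 1312, 1275 and 1489 in C362A Mlkl, 2689, 3293 and 2863 in C362A Casp1 and 673, 572 and 763 in C362A Cflar embryos. Isg15 in all Cflar-deficient libraries exceeded all controls, the first and second Casp1-deficient embryos fell within or below the Cflar-deficient range, and the third lay within the Ifnar-deficient range. MEFs held Isg15 at 7.79, 14.9 and 22.5 RPKM in controls and 4.34, 12.1 and 8.52 in mutants, which overlapped. The 4 C362A genotypes were separate from each other. Isg15 rose by 3.01 ± 0.64 (SE, adjusted p = 0.000605) on the log2 scale in Cflar-deficient embryos and by 6.48 ± 0.37 (SE, adjusted p = 7.2e-09) in C362A Mlkl embryos.

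USP18 removes ISG15 from its targets and damps the type I receptor. Usp18 stood at 5.84, 10.1 and 4.89 RPKM in the D387A controls, 5.50, 8.56 and 4.01 in the Casp8 1xDA/1xDA embryos and 34.4, 21.7 and 39.2 in the Cflar-deficient embryos. Usp18 reached 21.9, 29.1 and 135 RPKM in the Casp1-deficient, 131, 181 and 219 in the Ifnar-deficient and 301, 303 and 274 in the Fadd-deficient embryos. Usp18 in the C362A set was at 2.06, 3.59 and 5.32 RPKM in controls, 171, 177 and 212 in C362A Mlkl, 361, 426 and 355 in C362A Casp1 and 66.9, 65.8 and 111 in C362A Cflar embryos. The Fadd-deficient embryos had the highest Usp18 of the D387A set with no overlap, and the 4 C362A genotypes were again separate. MEFs held Usp18 at 1.12, 2.74 and 3.44 RPKM in controls and 0.849, 2.78 and 1.86 in mutants, which overlapped. Usp18 rose by 2.20 ± 0.53 (SE, adjusted p = 0.00171) in the Cflar-deficient embryos. TRIM25 is a ubiquitin ligase that activates RIG-I. Trim25 stood at 21.5, 23.7 and 19.5 RPKM in the D387A controls, 25.1, 23.7 and 21.4 in the Casp8 1xDA/1xDA embryos and 41.3, 37.1 and 41.4 in the Cflar-deficient embryos. Trim25 reached 27.9, 31.2 and 55.5 RPKM in the Casp1-deficient, 59.7, 62.8 and 66.4 in the Ifnar-deficient and 67.4, 70.8 and 72.5 in the Fadd-deficient embryos. Trim25 in the C362A set was at 19.1, 20.7 and 24.03 RPKM in controls, 65.2, 70.1 and 73.2 in C362A Mlkl, 85.2, 86.3 and 76.3 in C362A Casp1 and 58.6, 48.2 and 58.7 in C362A Cflar embryos. Trim25 separated every mutant intestine with a Cflar or C362A change from its controls, but the rise of 0.89 in Cflar-deficient embryos was under the calling threshold. MEFs held Trim25 at 11.1, 14.5 and 15.7 RPKM in controls and 9.61, 13.4 and 12.9 in mutants, which overlapped. Herc6, a ligase for ISG15, was called in all 7 mutant intestines other than Casp8 1xDA/1xDA and rose by 1.74 to 5.55. Uba7, the enzyme that activates ISG15, was at -0.05 in the Cflar-deficient embryos, the change nearest 0 of the 45 genes, and rose by 1.55 in the Ifnar-deficient and 2.88 in the C362A Casp1 embryos.

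Oligoadenylate synthetases make the messenger that switches on RNase L. Oas3 stood at 0.342, 0.924 and 0.604 RPKM in the D387A controls, 0.272, 1.04 and 0.436 in the Casp8 1xDA/1xDA embryos and 10.4, 7.05 and 11.1 in the Cflar-deficient embryos. Oas3 reached 2.31, 4.30 and 31.5 RPKM in the Casp1-deficient, 39.8, 35.3 and 42.8 in the Ifnar-deficient and 51.6, 58.9 and 71.1 in the Fadd-deficient embryos. Oas3 in the C362A set was at 0.226, 0.321 and 0.342 RPKM in controls, 36.6, 35.6 and 43.1 in C362A Mlkl, 89.4, 72.0 and 61.1 in C362A Casp1 and 22.7, 18.3 and 27.5 in C362A Cflar embryos. Every Cflar-deficient embryo was above every control, and the Cflar-deficient values in turn exceeded those of the first and second Casp1-deficient embryos. MEFs held Oas3 at 0.0656, 0.0487 and 0.0298 RPKM in controls and 0, 0.0901 and 0.0726 in mutants, which overlapped. Oas3 had the largest change of the module in 4 genotypes. It rose by 3.93 ± 0.77 (SE, adjusted p = 0.000269) in Cflar-deficient and 5.98 ± 0.80 (SE, adjusted p = 1.43e-05) in Ifnar-deficient embryos, and by 7.02 ± 0.24 (SE, adjusted p = 1.41e-10) in C362A Mlkl and 6.27 ± 0.23 (SE, adjusted p = 3.15e-10) in C362A Cflar embryos. In MEFs Oas3 did not pass the filter on low counts.

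Oas2 stood at 0.802, 1.09 and 1.38 RPKM in the D387A controls, 1.02, 1.57 and 0.734 in the Casp8 1xDA/1xDA embryos and 14.7, 11.5 and 14.7 in the Cflar-deficient embryos. Oas2 reached 4.43, 6.67 and 52.2 RPKM in the Casp1-deficient, 61.2, 53.3 and 56.5 in the Ifnar-deficient and 67.7, 70.2 and 86.0 in the Fadd-deficient embryos. Oas2 in the C362A set was at 1.11, 1.94 and 2.24 RPKM in controls, 98.3, 118 and 116 in C362A Mlkl, 183, 188 and 151 in C362A Casp1 and 53.4, 62.4 and 67.0 in C362A Cflar embryos. Oas2 showed the same separation of mutants from controls, with the first and second Casp1-deficient embryos between the controls and the Cflar-deficient embryos. MEFs held Oas2 at 0.1251, 0.191 and 0.213 RPKM in controls and 0.0805, 0.0716 and 0.1297 in mutants, which overlapped. Oas1a stood at 12.2, 19.3 and 10.48 RPKM in the D387A controls, 14.1, 22.9 and 12.1 in the Casp8 1xDA/1xDA embryos and 35.1, 29.1 and 35.9 in the Cflar-deficient embryos. Oas1a reached 17.3, 25.6 and 106 RPKM in the Casp1-deficient, 89.4, 121 and 123 in the Ifnar-deficient and 182, 171 and 151 in the Fadd-deficient embryos. Oas1a in the C362A set was at 7.24, 10.3 and 13.5 RPKM in controls, 114, 108 and 115 in C362A Mlkl, 229, 247 and 229 in C362A Casp1 and 67.6, 66.2 and 73.7 in C362A Cflar embryos. Oas1a of the first Casp1-deficient embryo lay within the control range, and the Fadd-deficient embryos were above all other D387A embryos. MEFs held Oas1a at 0.312, 0.836 and 0.522 RPKM in controls and 0.363, 0.476 and 0.581 in mutants, which overlapped. Oas1a shares 57.6% and Oas1g 45.7% of its 50-base exonic words with another gene, mainly each other, and their levels are uncertain for the same reason. Oasl2 stood at 18.2, 35.8 and 17.3 RPKM in the D387A controls, 21.1, 37.5 and 20.1 in the Casp8 1xDA/1xDA embryos and 88.6, 66.1 and 87.1 in the Cflar-deficient embryos. Oasl2 reached 41.8, 55.9 and 225 RPKM in the Casp1-deficient, 219, 204 and 238 in the Ifnar-deficient and 337, 345 and 365 in the Fadd-deficient embryos. Oasl2 in the C362A set was at 10.6, 15.1 and 18.6 RPKM in controls, 234, 210.2 and 248 in C362A Mlkl, 379, 338 and 313 in C362A Casp1 and 108, 95.5 and 148 in C362A Cflar embryos. The D387A genotypes with a Cflar deletion were all above controls for Oasl2, and the 4 C362A genotypes did not overlap. MEFs held Oasl2 at 1.19, 2.25 and 3.18 RPKM in controls and 1.05, 2.57 and 2.30 in mutants, which overlapped. Of the 7 genes of this family, 5 were called in the Cflar-deficient embryos and 7 in every other mutant intestine except Casp8 1xDA/1xDA. The Casp1-deficient count was 5 without the third embryo, with Oas1a at 0.62 and Oas1g at 0.87. The 2 not called in the Cflar-deficient embryos were Oas1b, at 0.81 ± 0.39 (SE, adjusted p = 0.0849), and Oas1g, at 1.20 ± 0.53 (SE, adjusted p = 0.062). Oas1b carries a truncating mutation in most laboratory strains.

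The upstream sequences of the genes with the largest and the smallest change in Cflar-deficient embryos, among those listed with values in every library and found in the promoter table, are shown as examples with and without an interferon response element. They were picked by size of change, and across the genes the core and the change did not separate in this way. Both are from the RefSeq promoters of GRCm38.p6, on the minus strand, chr5:120777665-120777784 for Oas3 and chr6:3399572-3399691 for Samd9l, read 5′ to 3′ towards the start of transcription. Capitals mark the element core, read as GAAA, any 2 bases and GAAA, whose first base in Oas3 lies at -75 from the start.
Oas3: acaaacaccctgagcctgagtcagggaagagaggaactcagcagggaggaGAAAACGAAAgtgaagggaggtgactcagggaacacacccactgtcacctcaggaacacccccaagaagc
Samd9l: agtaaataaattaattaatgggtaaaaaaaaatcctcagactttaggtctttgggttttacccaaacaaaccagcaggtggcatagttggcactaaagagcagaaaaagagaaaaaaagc
The window of Samd9l holds no core on either strand.

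The RefSeq table gave promoters, from 250 bases before to 50 after the start, for 35 of the 45 genes. On either strand the same core was present in 16 of their 42 promoters (38.1%), against 3.44% of all 32851 promoters. The gamma-activated core TTCNNNGAA was in 6 (14.3%, against 8.30%), and a kappaB site in 8 (19.0%, against 8.46%). The 14 genes with the response element core had a median log2 fold change of 2.11 in Cflar-deficient, 4.21 in Fadd-deficient and 4.29 in C362A Mlkl embryos. The 21 genes with a promoter in the table but no core had medians of 1.63, 2.62 and 2.46. In the Cflar-deficient embryos the ranges overlapped, from 0.48 to 3.93 with the core and from -0.05 to 3.00 without it. Ifit1 holds 2 cores and had the lowest change of its group, and Ifi44 holds none and had the highest of its own. A match describes these letters in this window only, and the difference was not tested. Many of the 45 genes are neighbours: on GRCm38 the 4 IFIT genes lie within chr19:34550694-34650009, 5 Oas genes within chr5:120730333-120907521, and Mx1 with Mx2, Parp9 with Dtx3l and Parp14, Rsad2 with Cmpk2, and Ifitm1 with Ifitm3 are pairs or groups on chromosomes 16, 12 and 7.

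Mx proteins are GTPases that trap viral nucleoproteins, and the Mx1 and Mx2 genes of most laboratory strains carry mutations that leave no functional protein. Mx1 stood at 0.685, 1.13 and 1.06 RPKM in the D387A controls, 0.723, 1.52 and 0.722 in the Casp8 1xDA/1xDA embryos and 5.93, 3.74 and 8.28 in the Cflar-deficient embryos. Mx1 reached 8.39, 14.03 and 57.7 RPKM in the Casp1-deficient, 47.0, 58.8 and 68.2 in the Ifnar-deficient and 113, 122 and 104 in the Fadd-deficient embryos. Mx1 in the C362A set was at 0.467, 0.660 and 1.53 RPKM in controls, 78.8, 127 and 125 in C362A Mlkl, 212, 259.9 and 205 in C362A Casp1 and 57.6, 33.2 and 45.4 in C362A Cflar embryos. All 3 Casp1-deficient embryos were above all 3 Cflar-deficient embryos, and the Fadd-deficient embryos were above every other D387A embryo. MEFs held Mx1 at 0.00915, 0 and 0.0415 RPKM in controls and 0.0538, 0.0837 and 0.0202 in mutants, which overlapped. The log2 rise of Mx1 was 2.64 ± 0.59 (SE, adjusted p = 0.000943) in Cflar-deficient, 6.88 ± 0.64 (SE, adjusted p = 2.94e-06) in Fadd-deficient and 8.01 ± 0.42 (SE, adjusted p = 4.51e-09) in C362A Casp1 embryos, the last 2 being the largest of the module in those genotypes. Mx2 stood at 0.728, 2.04 and 1.24 RPKM in the D387A controls, 1.44, 2.38 and 0.817 in the Casp8 1xDA/1xDA embryos and 6.40, 4.69 and 7.57 in the Cflar-deficient embryos. Mx2 reached 7.26, 10.54 and 34.7 RPKM in the Casp1-deficient, 23.6, 25.5 and 27.1 in the Ifnar-deficient and 55.3, 51.4 and 43.4 in the Fadd-deficient embryos. Mx2 in the C362A set was at 0.607, 1.35 and 2.18 RPKM in controls, 37.5, 49.7 and 49.2 in C362A Mlkl, 93.9, 104 and 88.0 in C362A Casp1 and 30.7, 23.5 and 26.0 in C362A Cflar embryos. Every mutant embryo other than Casp8 1xDA/1xDA was above its controls for Mx2. MEFs held Mx2 at 0.166, 0.366 and 0.406 RPKM in controls and 0.0941, 0.254 and 0.184 in mutants, which overlapped. The first Casp1-deficient embryo lay within the Cflar-deficient range for Mx2, and the third exceeded all Ifnar-deficient embryos.

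Of the membrane proteins, Ifitm1 and Ifitm3 gave a different order, being highest in the Cflar-deficient embryos of the D387A set. IFITM1 and IFITM3 sit in plasma and endosomal membranes and hinder virus entry. Ifitm1 stood at 27.1, 29.2 and 26.1 RPKM in the D387A controls, 19.1, 18.9 and 19.6 in the Casp8 1xDA/1xDA embryos and 142, 112 and 166 in the Cflar-deficient embryos. Ifitm1 reached 26.9, 19.0 and 35.9 RPKM in the Casp1-deficient, 31.7, 37.9 and 38.8 in the Ifnar-deficient and 26.7, 25.4 and 22.2 in the Fadd-deficient embryos. Ifitm1 in the C362A set was at 22.2, 19.9 and 21.5 RPKM in controls, 114, 97.9 and 97.9 in C362A Mlkl, 22.1, 27.0 and 24.4 in C362A Casp1 and 148, 129 and 108 in C362A Cflar embryos. High values were found in the Cflar-deficient, C362A Mlkl and C362A Cflar embryos, the intestines with a Cflar or C362A change and intact Casp1, and all of these exceeded every other library. MEFs held Ifitm1 at 3.20, 3.33 and 2.74 RPKM in controls and 3.00, 3.59 and 2.54 in mutants, which overlapped. Ifitm1 rose by 2.35 ± 0.18 (SE, adjusted p = 4.81e-09) in Cflar-deficient embryos, and was at -0.01 (interval -0.36 to 0.34), 0.40 (interval 0.05 to 0.74) and -0.15 (interval -0.49 to 0.20) in the Casp1-, Ifnar- and Fadd-deficient embryos, where the interval is ± 2 SE. Ifitm3 stood at 109, 92.3 and 101 RPKM in the D387A controls, 80.3, 84.1 and 82.2 in the Casp8 1xDA/1xDA embryos and 541, 432 and 613 in the Cflar-deficient embryos. Ifitm3 reached 142, 99.2 and 303 RPKM in the Casp1-deficient, 221, 240.3 and 273 in the Ifnar-deficient and 327, 316 and 266 in the Fadd-deficient embryos. Ifitm3 in the C362A set was at 64.3, 70.6 and 51.4 RPKM in controls, 621, 477 and 526 in C362A Mlkl, 379, 478 and 383 in C362A Casp1 and 467, 424 and 458 in C362A Cflar embryos. Ifitm3 was highest in Cflar-deficient embryos within the D387A set, without overlap, and the control MEFs were above the control intestines. MEFs held Ifitm3 at 259, 311 and 281 RPKM in controls and 223, 298 and 309.6 in mutants, which overlapped. Bst2 stood at 66.8, 82.0 and 52.9 RPKM in the D387A controls, 55.3, 94.4 and 49.8 in the Casp8 1xDA/1xDA embryos and 369.7, 273 and 405 in the Cflar-deficient embryos. Bst2 reached 102, 112 and 719 RPKM in the Casp1-deficient, 649.6, 742 and 861 in the Ifnar-deficient and 1201, 1087 and 893 in the Fadd-deficient embryos. Bst2 in the C362A set was at 36.4, 45.4 and 49.3 RPKM in controls, 1000, 912 and 999.5 in C362A Mlkl, 1616, 2010 and 1692 in C362A Casp1 and 456, 458 and 537 in C362A Cflar embryos. Bst2, or tetherin, which holds budding virions at the cell surface, was highest in the Fadd-deficient embryos of the D387A set, where Ifitm1 was not, and the first and second Casp1-deficient embryos lay between controls and Cflar-deficient embryos. MEFs held Bst2 at 16.4, 21.6 and 32.9 RPKM in controls and 19.0, 24.6 and 20.7 in mutants, which overlapped. The fourth gene of this group, Rtp4, was called in all 7 of those mutants, with changes from 1.01 to 4.12. Neither Rtp4, at 0.59, nor Bst2, at 0.67, was called in the Casp1-deficient embryos without the third, and Ifitm1 was at -0.26.

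**Figure D2:**
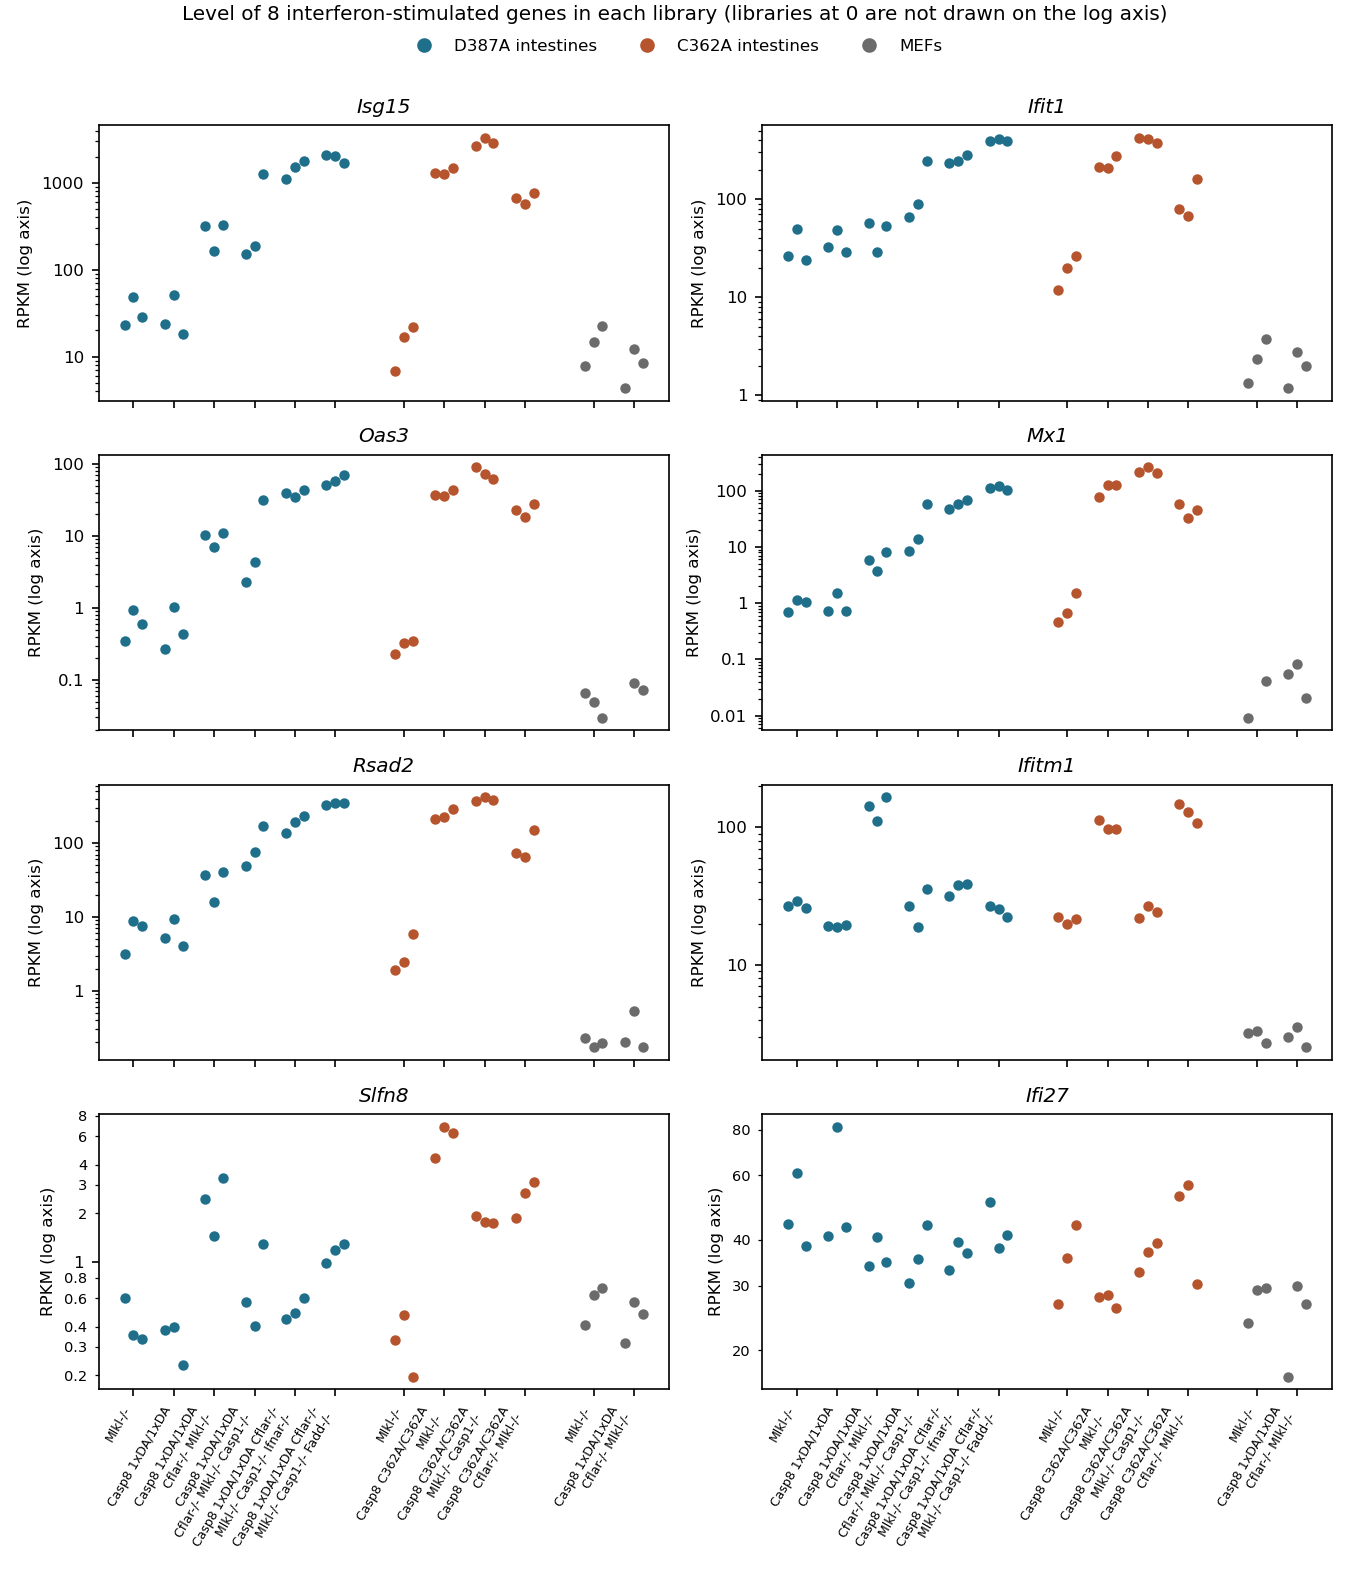
Levels of 8 of the genes in RPKM on log axes, one point per library, grouped by genotype and coloured by set; Oas3 and Mx1 each have 1 MEF library at 0 that is not drawn. Isg15, Ifit1, Oas3, Mx1 and Rsad2 are higher in the Fadd-deficient than in the Cflar-deficient embryos, Ifitm1 is highest in the Cflar-deficient, C362A Mlkl and C362A Cflar embryos, Slfn8 in the Cflar-deficient embryos of the D387A set and the C362A Mlkl embryos of the other, and Ifi27 overlaps the controls in every genotype.

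Among enzymes acting on nucleotides and RNA, viperin (Rsad2) makes a chain-terminating nucleotide and its genomic neighbour Cmpk2 supplies the precursor. Rsad2 stood at 3.12, 8.86 and 7.56 RPKM in the D387A controls, 5.13, 9.24 and 4.06 in the Casp8 1xDA/1xDA embryos and 37.2, 15.8 and 40.5 in the Cflar-deficient embryos. Rsad2 reached 48.8, 75.6 and 169.9 RPKM in the Casp1-deficient, 137, 193 and 232 in the Ifnar-deficient and 326, 353 and 350.5 in the Fadd-deficient embryos. Rsad2 in the C362A set was at 1.93, 2.42 and 5.95 RPKM in controls, 209, 228 and 293 in C362A Mlkl, 372, 420.5 and 380.5 in C362A Casp1 and 74.3, 63.9 and 149.7 in C362A Cflar embryos. All Casp1-deficient embryos were above all Cflar-deficient embryos for Rsad2. MEFs held Rsad2 at 0.229, 0.174 and 0.198 RPKM in controls and 0.205, 0.537 and 0.172 in mutants, which overlapped. Cmpk2 stood at 7.23, 13.8 and 9.25 RPKM in the D387A controls, 9.07, 11.2 and 8.32 in the Casp8 1xDA/1xDA embryos and 31.4, 14.7 and 32.0 in the Cflar-deficient embryos. Cmpk2 reached 42.6, 67.2 and 156 RPKM in the Casp1-deficient, 144, 169 and 209 in the Ifnar-deficient and 306, 335 and 322 in the Fadd-deficient embryos. Cmpk2 in the C362A set was at 3.98, 5.92 and 8.75 RPKM in controls, 168, 174 and 233 in C362A Mlkl, 353, 399 and 358 in C362A Casp1 and 67.7, 51.0 and 118 in C362A Cflar embryos. Cmpk2 had the same separation of Casp1-deficient from Cflar-deficient embryos, and the 4 C362A genotypes did not overlap for either gene. MEFs held Cmpk2 at 0.726, 0.759 and 0.732 RPKM in controls and 0.356, 1.15 and 0.846 in mutants, which overlapped. Rsad2 rose by 2.26 ± 0.46 (SE, adjusted p = 0.000449) and Cmpk2 by 1.36 ± 0.38 (SE, adjusted p = 0.00462) in the Cflar-deficient embryos, and by 5.72 and 4.99 in the Fadd-deficient embryos. SAMD9L is a growth-restraining antiviral factor. Samd9l stood at 20.9, 25.1 and 19.3 RPKM in the D387A controls, 23.3, 21.3 and 20.2 in the Casp8 1xDA/1xDA embryos and 27.3, 21.6 and 23.4 in the Cflar-deficient embryos. Samd9l reached 26.3, 32.9 and 61.6 RPKM in the Casp1-deficient, 58.7, 55.3 and 60.6 in the Ifnar-deficient and 90.4, 91.7 and 105 in the Fadd-deficient embryos. Samd9l in the C362A set was at 26.9, 30.2 and 42.3 RPKM in controls, 73.0, 83.3 and 89.4 in C362A Mlkl, 129.6, 138 and 124 in C362A Casp1 and 45.4, 55.8 and 67.5 in C362A Cflar embryos. Samd9l overlapped the controls in Cflar-deficient embryos, at 0.15 ± 0.21 (SE, adjusted p = 0.565), and was called in the Ifnar-deficient (1.42) and Fadd-deficient embryos (2.14). MEFs held Samd9l at 4.64, 5.81 and 5.98 RPKM in controls and 4.07, 4.89 and 4.24 in mutants, which overlapped.

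Schlafen proteins bind RNA and restrict replication. Slfn8 stood at 0.603, 0.354 and 0.337 RPKM in the D387A controls, 0.382, 0.396 and 0.232 in the Casp8 1xDA/1xDA embryos and 2.44, 1.45 and 3.32 in the Cflar-deficient embryos. Slfn8 reached 0.567, 0.403 and 1.30 RPKM in the Casp1-deficient, 0.444, 0.486 and 0.601 in the Ifnar-deficient and 0.993, 1.19 and 1.29 in the Fadd-deficient embryos. Slfn8 in the C362A set was at 0.330, 0.472 and 0.196 RPKM in controls, 4.38, 6.86 and 6.31 in C362A Mlkl, 1.93, 1.77 and 1.74 in C362A Casp1 and 1.86, 2.66 and 3.13 in C362A Cflar embryos. Slfn8 was higher in every Cflar-deficient embryo than in any other D387A embryo, and the Ifnar-deficient embryos overlapped the controls. MEFs held Slfn8 at 0.409, 0.630 and 0.689 RPKM in controls and 0.318, 0.566 and 0.478 in mutants, which overlapped. Slfn8 rose by 2.48 ± 0.38 (SE, adjusted p = 2.14e-05) in Cflar-deficient and by 4.11 ± 0.29 (SE, adjusted p = 4.86e-08) in C362A Mlkl embryos, and was at 0.24 (interval -0.57 to 1.05) in Ifnar-deficient embryos. About 14.6% of its 50-base exonic words occur in other genes. Slfn5 was called in all 7 mutants (1.61 to 3.99), but the Casp1-deficient call rested on the third embryo, without which Slfn5 was at 0.14. Isg20, an RNA exonuclease, and Ddx60, a helicase, were likewise called in all 7, with Isg20 at 1.81 and Ddx60 at 1.26 in the Cflar-deficient embryos, and both were called in Casp1-deficient embryos without the third embryo too, at 1.82 and 1.43. Znfx1 and Helz2, both helicases, were at 0.28 and 0.08 in the Cflar-deficient embryos and reached 2.62 and 1.84 in the Fadd-deficient embryos.

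PARP14, PARP9 and its partner DTX3L act in ADP-ribosylation and ubiquitin marking, and SP100 and PHF11D in chromatin. Parp14 stood at 12.8, 16.9 and 11.7 RPKM in the D387A controls, 15.8, 15.9 and 14.6 in the Casp8 1xDA/1xDA embryos and 24.1, 19.8 and 23.7 in the Cflar-deficient embryos. Parp14 reached 15.5, 21.2 and 46.8 RPKM in the Casp1-deficient, 52.2, 44.8 and 45.1 in the Ifnar-deficient and 49.8, 57.1 and 61.5 in the Fadd-deficient embryos. Parp14 in the C362A set was at 10.3, 14.1 and 14.3 RPKM in controls, 56.3, 66.2 and 69.9 in C362A Mlkl, 84.7, 76.5 and 67.2 in C362A Casp1 and 36.7, 28.0 and 39.2 in C362A Cflar embryos. The 3 Cflar-deficient embryos were above the controls for Parp14, at 0.71 ± 0.27 (SE, adjusted p = 0.0294), which missed the fold threshold. MEFs held Parp14 at 1.17, 1.71 and 1.76 RPKM in controls and 0.787, 2.22 and 1.66 in mutants, which overlapped. Sp100 stood at 1.92, 1.87 and 2.53 RPKM in the D387A controls, 1.98, 3.00 and 1.83 in the Casp8 1xDA/1xDA embryos and 9.61, 7.26 and 11.3 in the Cflar-deficient embryos. Sp100 reached 3.03, 3.05 and 16.1 RPKM in the Casp1-deficient, 16.9, 16.3 and 20.02 in the Ifnar-deficient and 24.4, 23.7 and 24.2 in the Fadd-deficient embryos. Sp100 in the C362A set was at 1.37, 1.93 and 1.80 RPKM in controls, 31.9, 34.9 and 37.0 in C362A Mlkl, 50.4, 51.7 and 40.9 in C362A Casp1 and 18.7, 19.1 and 21.7 in C362A Cflar embryos. Sp100 was above the controls in every Cflar-deficient embryo, while the first and second Casp1-deficient embryos lay between the controls and the Cflar-deficient embryos. MEFs held Sp100 at 0.473, 0.838 and 1.22 RPKM in controls and 0.252, 0.485 and 0.469 in mutants, which overlapped. The changes in Cflar-deficient embryos were 2.15 ± 0.47 (SE, adjusted p = 0.000777) for Sp100, 2.87 for Phf11d, 1.63 for Dtx3l and 0.84 for Parp9, of which the first 3 were called.

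Ifi27, a mitochondrial protein gene, was the exception of the module. Ifi27 stood at 44.2, 61.1 and 38.5 RPKM in the D387A controls, 41.1, 81.6 and 43.4 in the Casp8 1xDA/1xDA embryos and 34.0, 40.7 and 34.9 in the Cflar-deficient embryos. Ifi27 reached 30.4, 35.4 and 43.8 RPKM in the Casp1-deficient, 33.2, 39.5 and 36.8 in the Ifnar-deficient and 50.9, 38.1 and 41.1 in the Fadd-deficient embryos. Ifi27 in the C362A set was at 26.7, 35.8 and 43.9 RPKM in controls, 28.0, 28.2 and 26.1 in C362A Mlkl, 32.7, 37.0 and 39.3 in C362A Casp1 and 52.7, 56.7 and 30.2 in C362A Cflar embryos. Its libraries overlapped the controls in every mutant of both intestine sets, and none of its changes was called. MEFs held Ifi27 at 23.7, 29.2 and 29.5 RPKM in controls and 16.9, 30.0 and 26.8 in mutants, which overlapped. The change was -0.39 (interval -0.84 to 0.05) in Cflar-deficient and -0.37 (interval -0.78 to 0.05) in C362A Mlkl embryos, and both upper bounds lay below the calling threshold of 1. In the Casp1-deficient, Fadd-deficient, C362A Casp1 and C362A Cflar embryos it was at -0.39, -0.14, 0.04 and 0.39. Its neighbour Ifi27l2a behaved unlike it and rose by 3.52 ± 0.48 (SE, adjusted p = 6.23e-06) in Cflar-deficient and 5.01 in C362A Cflar embryos.

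Ifi44 stood at 2.44, 1.62 and 1.60 RPKM in the D387A controls, 1.64, 1.98 and 0.987 in the Casp8 1xDA/1xDA embryos and 16.7, 12.5 and 16.2 in the Cflar-deficient embryos. Ifi44 reached 4.12, 5.17 and 32.3 RPKM in the Casp1-deficient, 32.9, 36.2 and 42.8 in the Ifnar-deficient and 69.2, 79.6 and 76.0 in the Fadd-deficient embryos. Ifi44 in the C362A set was at 0.898, 1.08 and 0.629 RPKM in controls, 38.2, 41.6 and 48.6 in C362A Mlkl, 109, 104 and 89.2 in C362A Casp1 and 34.4, 28.0 and 33.2 in C362A Cflar embryos. Ifi44 rose without overlap in every mutant intestine with a Cflar or C362A change, by 3.00 ± 0.57 (SE, adjusted p = 0.00023) in Cflar-deficient and 5.31 ± 0.61 (SE, adjusted p = 1.62e-05) in Fadd-deficient embryos. MEFs held Ifi44 at 0.564, 1.00 and 1.53 RPKM in controls and 0.611, 0.844 and 0.506 in mutants, which overlapped. TRIM30A restrains innate signaling in mice. Trim30a stood at 2.82, 4.05 and 3.10 RPKM in the D387A controls, 3.04, 4.74 and 2.05 in the Casp8 1xDA/1xDA embryos and 14.9, 8.80 and 15.6 in the Cflar-deficient embryos. Trim30a reached 6.69, 8.59 and 44.7 RPKM in the Casp1-deficient, 50.7, 56.8 and 63.2 in the Ifnar-deficient and 78.3, 81.2 and 84.6 in the Fadd-deficient embryos. Trim30a in the C362A set was at 1.58, 2.64 and 2.54 RPKM in controls, 61.1, 75.2 and 80.0 in C362A Mlkl, 120.3, 111 and 94.0 in C362A Casp1 and 28.0, 27.7 and 44.2 in C362A Cflar embryos. The Fadd-deficient embryos had the highest Trim30a of the D387A set, and the first and second Casp1-deficient embryos were below all Cflar-deficient embryos. MEFs held Trim30a at 0.895, 1.58 and 1.63 RPKM in controls and 0.604, 1.19 and 0.999 in mutants, which overlapped. Rnf213 stood at 12.1, 18.3 and 11.6 RPKM in the D387A controls, 14.02, 15.2 and 11.3 in the Casp8 1xDA/1xDA embryos and 36.7, 27.1 and 33.7 in the Cflar-deficient embryos. Rnf213 reached 21.5, 28.3 and 57.9 RPKM in the Casp1-deficient, 66.3, 52.9 and 54.7 in the Ifnar-deficient and 67.4, 78.4 and 88.1 in the Fadd-deficient embryos. Rnf213 in the C362A set was at 10.4, 10.97 and 13.3 RPKM in controls, 58.4, 65.4 and 67.4 in C362A Mlkl, 86.5, 78.2 and 72.4 in C362A Casp1 and 50.3, 39.6 and 54.7 in C362A Cflar embryos. Every Cflar-deficient embryo was above the controls for Rnf213, a large ubiquitin ligase, and the second Casp1-deficient embryo lay within the Cflar-deficient range. MEFs held Rnf213 at 6.58, 6.69 and 8.27 RPKM in controls and 6.10, 8.61 and 7.81 in mutants, which overlapped. Rnf213 rose by 1.22 ± 0.27 (SE, adjusted p = 0.000958) in Cflar-deficient embryos. Lgals3bp stood at 174, 192 and 149.6 RPKM in the D387A controls, 183, 211 and 189 in the Casp8 1xDA/1xDA embryos and 271, 225 and 254 in the Cflar-deficient embryos. Lgals3bp reached 169, 205 and 444 RPKM in the Casp1-deficient, 452, 429 and 491 in the Ifnar-deficient and 619.6, 635 and 637 in the Fadd-deficient embryos. Lgals3bp in the C362A set was at 141, 157 and 142 RPKM in controls, 508, 384 and 486 in C362A Mlkl, 702, 695 and 677 in C362A Casp1 and 225, 191 and 350.4 in C362A Cflar embryos. The first Casp1-deficient embryo lay within the control range for Lgals3bp, a secreted glycoprotein and the most abundant gene of the module in control intestines, and the 4 C362A genotypes did not overlap. MEFs held Lgals3bp at 27.9, 42.1 and 54.3 RPKM in controls and 17.6, 37.8 and 33.7 in mutants, which overlapped. Lgals3bp changed by 0.54 ± 0.23 (SE, adjusted p = 0.0569) in Cflar-deficient and 1.88 ± 0.24 (SE, adjusted p = 4.44e-05) in Fadd-deficient embryos. Of the remaining genes, Xaf1 was called in all 7 mutants (in the Casp1-deficient only with the third embryo, and at 0.76 without it), Epsti1 in 5 and Ifi35 in 5, from 1.64, 0.92 and 0.16 in Cflar-deficient embryos to 5.11, 3.05 and 3.07 in C362A Casp1 embryos.

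The Casp8 1xDA/1xDA embryos carried the D387A change with Cflar and Mlkl present. Their controls were Mlkl-/-, so the groups differed at both Casp8 and Mlkl and in the number in their library titles, and these cannot be told apart. None of the 45 was called in either direction, where 0% of all genes were called higher and 0.00545% lower. One gene had an unadjusted p under 0.05, against 5.02% of all genes, and limma-voom and DESeq2 also called 0. Ifitm1 and Ifitm3 lay below all controls in the 3 embryos without overlap, a pattern seen in 6.26% of all genes, and 0 genes lay above without overlap (9.37%). The median log2 fold change was 0.06, with a range from -0.52 ± 0.18 (SE, adjusted p = 0.96) for Ifitm1 to 0.36 ± 0.55 (SE, adjusted p = 0.984) for Oas1g and a value nearest 0 of -0.01 for Samd9l. The change was -0.10 (interval -1.32 to 1.13) for Isg15 and -0.05 (interval -1.84 to 1.75) for Oas3, intervals of ± 2 SE that hold changes of 1 in either direction.

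In the Cflar-deficient embryos 30 of the 45 genes were called higher, where 9.40% of all tested genes were, and 0 were called lower, where 12.8% were. The median log2 fold change over the 45 genes was 1.74, beside -0.01 over all genes. The 3 mutant libraries lay above the 3 controls for 37 genes, a pattern seen in 34.3% of all genes. By role, calls were made for 2 of 4 IFIT genes, 3 of 5 genes of the ISG15 system, 5 of 7 oligoadenylate synthetases, both Mx genes, 4 of 4 membrane genes, 6 of 9 enzymes of nucleotides and RNA, 3 of 5 genes of ADP-ribosylation and chromatin and 5 of 9 others. The count ranged from 26 to 34 when single libraries were left out.

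**Figure D3:**
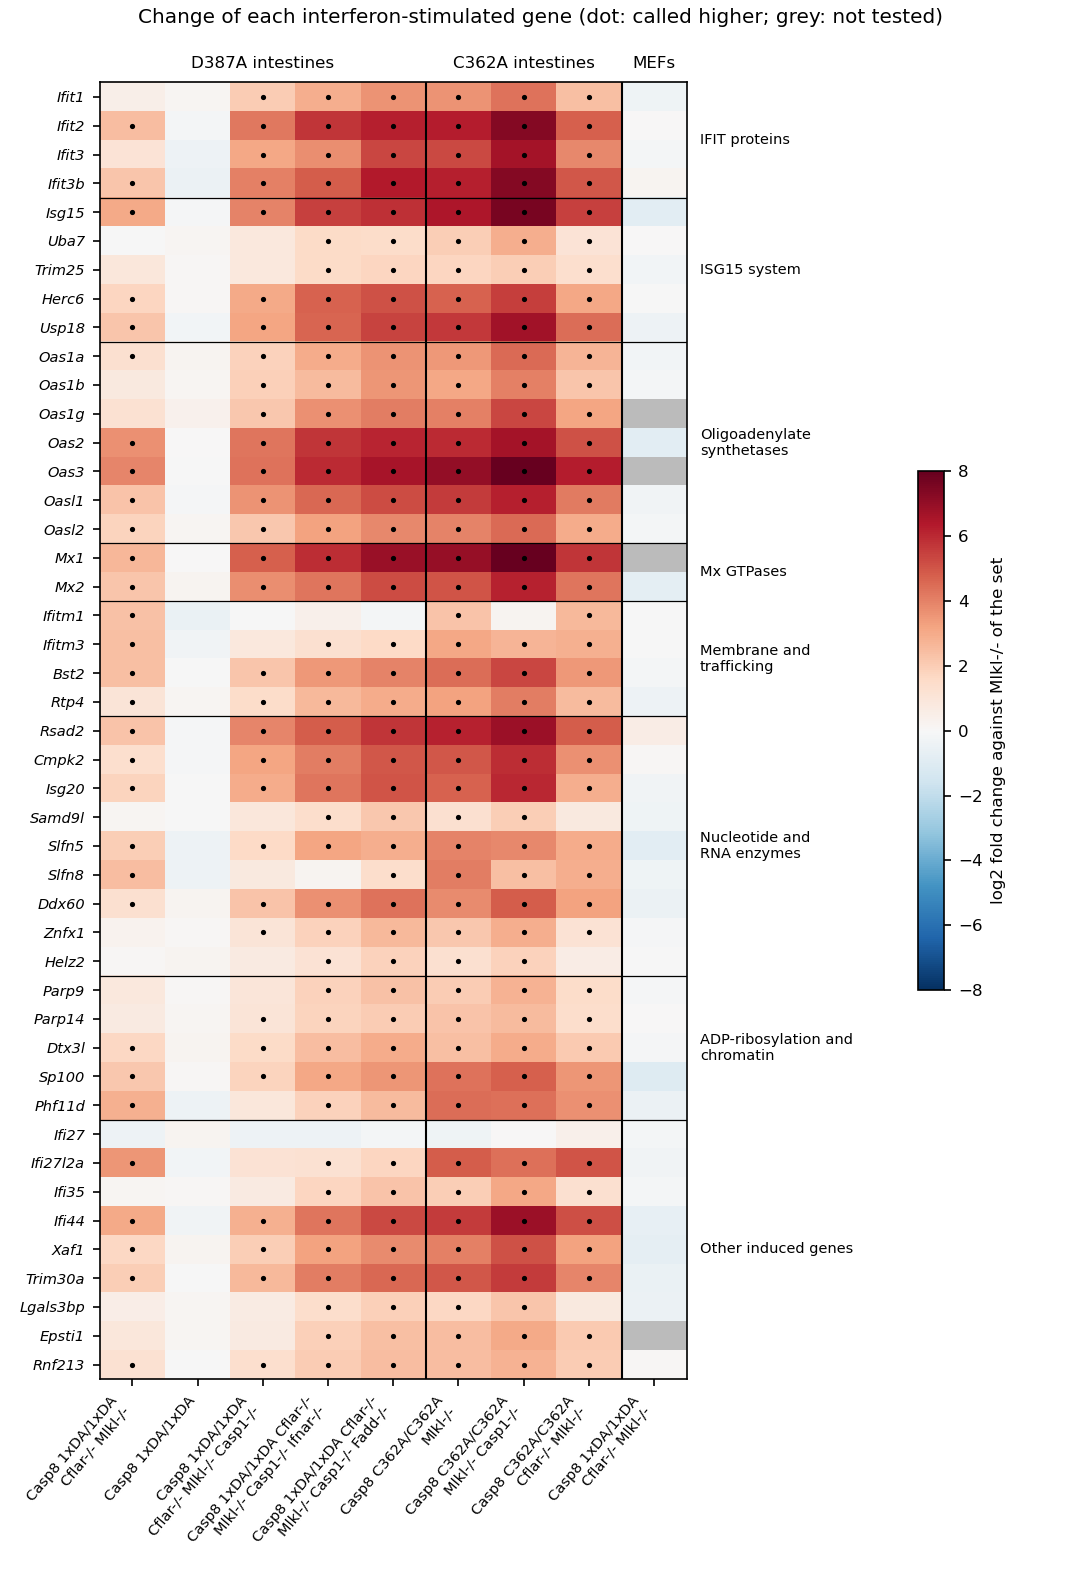
Log2 fold change of each of the 45 genes (rows, by role) in each mutant against the Mlkl-/- controls of its set (columns), red for higher and blue for lower, with a dot where the gene was called higher and grey where it was not tested. The Casp8 1xDA/1xDA and MEF columns hold no dots, and neither does the Ifi27 row.

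Against controls, 31 genes were called higher in the Casp1-deficient embryos (2.16% of all genes) and 0 lower (2.18%), with a median of 1.90. Without the third embryo the count was 20 (1.32% of all genes) and the median 0.83, with 41 of 45 genes above 0 and a range from -0.54 to 3.55. The 11 genes that were no longer called were Oas1a, Oas1g, Bst2, Rtp4, Slfn5, Znfx1, Parp14, Dtx3l, Sp100, Xaf1 and Rnf213. A fit of only these groups' 6 libraries called 17. Mx1 had the largest change with and without that embryo, at 4.80 ± 0.60 (SE, adjusted p = 5.68e-05) with it and 3.55 without it. The change nearest 0 was that of Ifitm1 with all libraries, at -0.01, and that of Uba7 without the embryo, at 0.01. In the Ifnar-deficient embryos 42 genes were called higher (6.76%) and 0 lower (5.64%), with a median of 3.07. The 3 others were Ifitm1, Slfn8 and Ifi27, at 0.40, 0.24 and -0.39. In the Fadd-deficient embryos 43 were called higher (2.81%) and 0 lower (0.975%), with a median of 3.59, and Ifitm1 and Ifi27 were not called. By group mean, the Fadd-deficient embryos were the highest of the D387A set for 37 genes. The Cflar-deficient embryos were highest for Ifitm1, Ifitm3, Ifi27l2a, Phf11d and Slfn8, the Ifnar-deficient for Slfn5 and Uba7, and the Casp8 1xDA/1xDA for Ifi27. All these comparisons share the D387A controls.

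Loss of Casp1 on the Cflar-deficient background split the module. With all libraries, 13 genes were called higher (8.88% of all genes) and 5 lower (4.51%), with a median of 0.57. Mx1 rose by 2.15 ± 0.50 (SE, adjusted p = 0.00188), Ifit3 by 2.02 ± 0.52 (SE, adjusted p = 0.00437) and Cmpk2 by 1.76 ± 0.37 (SE, adjusted p = 0.000892). The genes that fell were Ifitm1 at -2.36 ± 0.17 (SE, adjusted p = 1.33e-08), Ifi27l2a at -2.34 ± 0.44 (SE, adjusted p = 0.000365), Phf11d at -1.94 ± 0.39 (SE, adjusted p = 0.000563), Slfn8 at -1.68 ± 0.35 (SE, adjusted p = 0.000821) and Ifitm3 at -1.54 ± 0.26 (SE, adjusted p = 0.000136). The change nearest 0 was 0.00038, for Ifi27. Without the third Casp1-deficient embryo, 1 gene was called higher (9.41% of all genes), Cmpk2 at 1.08 with an adjusted p of 0.00395. In that fit 11 were called lower (6.36%), the same 5 with Oas2, Oas3, Bst2, Slfn5, Sp100 and Ifi44. The median turned to -0.38, and 16 of 45 genes lay above 0. Oas2 went from 0.63 to -1.30 and Oas3 from 0.42 to -1.52. The direction of the median therefore rested on 1 embryo, while the falls of Ifitm1, Ifitm3, Ifi27l2a, Phf11d and Slfn8 were called in both fits. Without the second Cflar-deficient embryo 8 genes were called higher, as with limma-voom.

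Loss of Ifnar1 on the Casp1-deficient background addressed whether the type I receptor was needed for these transcripts. The Ifnar-deficient embryos were called higher than the Casp1-deficient embryos for 13 genes (3.28% of all genes) and lower for 0 (2.03%), with a median of 0.98. Herc6 rose most, by 1.68 ± 0.48 (SE, adjusted p = 0.0148), Slfn8 was lowest, at -0.56 ± 0.38 (SE, adjusted p = 0.282), and Ifi27 was nearest 0, at -0.00075. Without the third Casp1-deficient embryo 39 genes were called higher (6.06% of all genes), the median was 1.79 and 45 of 45 genes lay above 0. Leaving out the first or the second Casp1-deficient embryo instead left 0 genes called, and leaving out the second or the third Ifnar-deficient embryo left 5 or 2. A fit of only these 6 libraries also called 0, and limma-voom called 27. The Ifnar-deficient embryos also exceeded the Cflar-deficient embryos in module level, as given above, and the direct contrast of those genotypes differs in both Casp1 and Ifnar1.

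Loss of Fadd, the adaptor that recruits caspase-8 to its platforms, on the Casp1-deficient background gave 36 genes called higher (2.56% of all genes) and 0 lower (0.877%), with a median of 1.62. Ifi44 rose most, by 2.44 ± 0.51 (SE, adjusted p = 0.00327), followed by Ifit3b at 2.35, and Ifitm1 was at -0.14 (interval -0.48 to 0.21). Without the third Casp1-deficient embryo 43 genes were called higher (3.96% of all genes) and the median was 2.49. A fit of only these 6 libraries called 5.

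The C362A set asked what an inactive caspase-8 did to these genes, and all but Ifi27 rose in at least 1 of its mutant groups. In the C362A Mlkl embryos 44 of 45 genes were called higher (10.4% of all genes) and 0 lower (7.55%), with a median of 4.02. In the C362A Casp1 embryos 43 were called higher (6.79%) and 0 lower (3.73%), with a median of 4.51, and Ifi27 and Ifitm1 were not called. In the C362A Cflar embryos 41 were called higher (13.4%) and 0 lower (11.2%), with a median of 2.99. The other genes were Ifi27, Samd9l at 0.76 ± 0.18 (SE, adjusted p = 0.00277), Helz2 at 0.59 ± 0.20 (SE, adjusted p = 0.0208) and Lgals3bp at 0.80 ± 0.21 (SE, adjusted p = 0.00448). Controls were lowest for 44 genes, Ifi27 being the exception, and the C362A Casp1 embryos were highest for 38.

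Casp1 loss in the C362A set called 14 genes higher (5.60% of all genes) and 2 lower (5.72%), with a median of 0.75. Ifit3 rose most, by 1.40 ± 0.38 (SE, adjusted p = 0.011), followed by Oas1g at 1.30 and Isg20 at 1.30. Without the first C362A Mlkl embryo, or without the second C362A Casp1 embryo, 8 were called higher. Ifitm1 fell, at -2.07 ± 0.13 (SE, adjusted p = 1.12e-07), as did Slfn8, at -1.69 ± 0.25 (SE, adjusted p = 0.000154). Ifitm3, Phf11d and Ifi27l2a, which fell with Casp1 loss in the D387A set, were at -0.39, -0.09 and -0.46 here. The difference between the sets was tested as an interaction, and those same 3 genes differed, by -1.13 for Ifitm3 (adjusted p = 0.0165), -1.82 for Phf11d (adjusted p = 0.00716) and -1.85 for Ifi27l2a (adjusted p = 0.0335), the D387A effect being the lower. All genes differed in 0.825% of cases in that direction and 4.90% in the other. Without the third Casp1-deficient embryo 22 genes differed, all negative (2.23% of all genes, and 5.81% positive), and the median difference went from -0.12 to -0.98, and without the first or the second 1 gene differed.

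**Figure D4:**
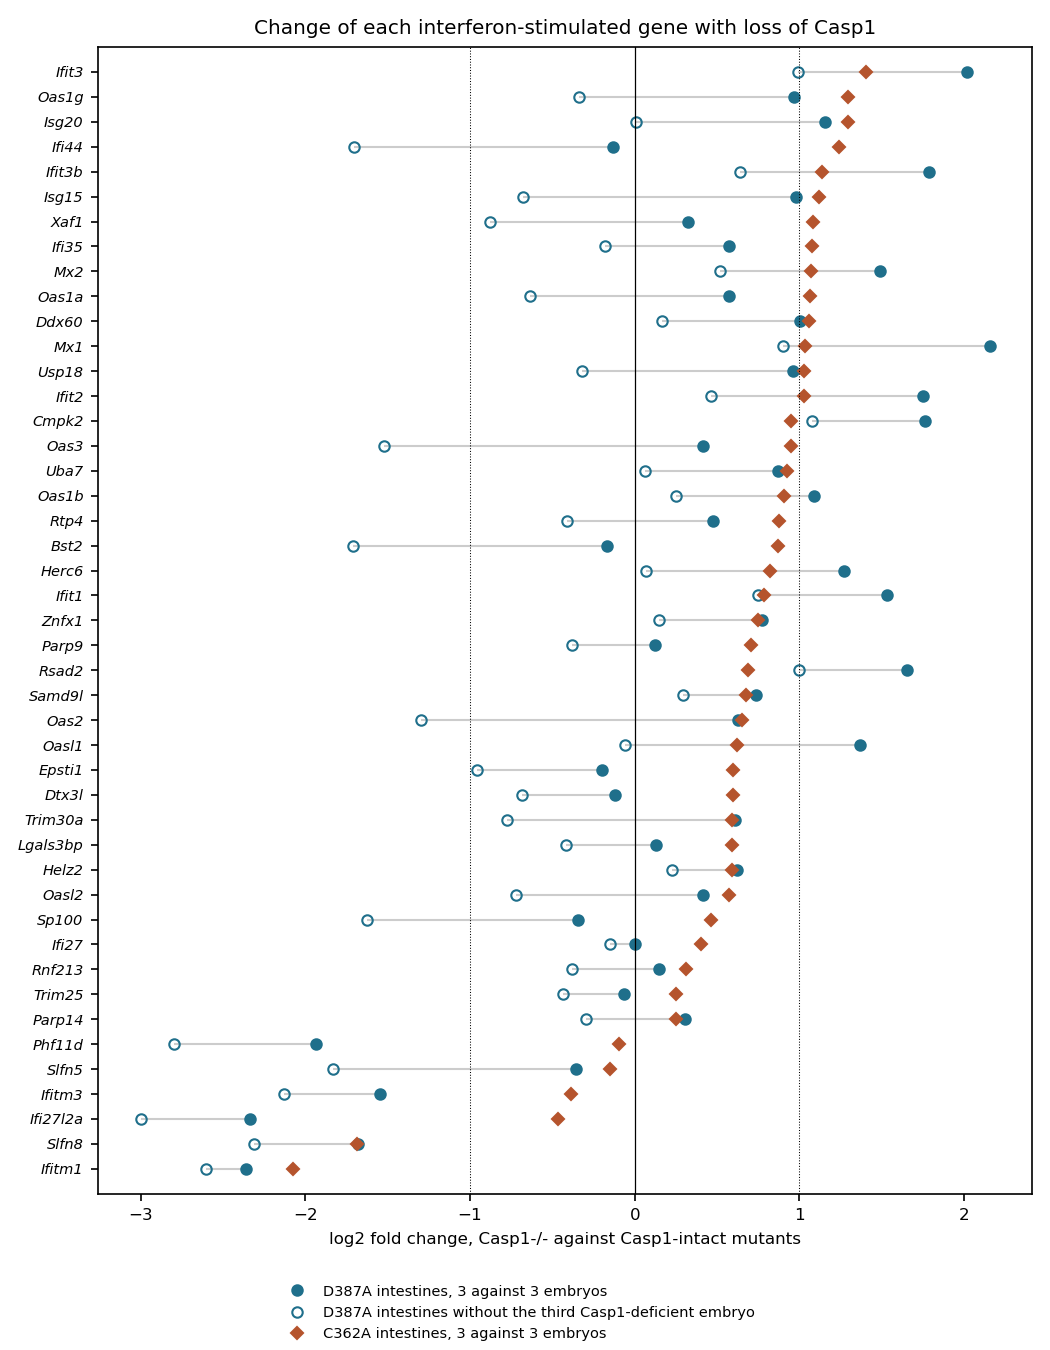
Log2 fold change with loss of Casp1 (horizontal axis) for each of the 45 genes, in the D387A set with all 3 Casp1-deficient embryos (filled circles) and without the third (open circles), and in the C362A set (diamonds). Ifitm1 and Slfn8 lie below -1 in all 3 series, whereas Oas2 and Oas3 lie above 0 with the third embryo and below -1 without it.

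Loss of Cflar in the C362A set went the other way. None of the 45 genes was called higher (1.45% of all genes) and 17 were called lower (4.62%), with a median of -0.85. The 17 included all 4 IFIT genes, Isg15 at -1.02 ± 0.29 (SE, adjusted p = 0.0237), Usp18 at -1.20, Rsad2 at -1.34 and Mx1 at -1.28. Isg20 fell most, at -1.79 ± 0.22 (SE, adjusted p = 0.000215), Ifi27 was the highest, at 0.76 ± 0.21 (SE, adjusted p = 0.0196), and Ifi27l2a was nearest 0, at 0.16. Called genes numbered 10 without the first and 8 without the second C362A Cflar embryo, and 9 without the third C362A Mlkl embryo. In the test of the difference between the Cflar-deficient genotypes of the sets, each against its own controls, edgeR called none of the 45 genes, with 33 genes at an unadjusted p under 0.05 (20.6% of all genes) and a lowest adjusted p of 0.0632 for Cmpk2. All 45 differences were negative, the D387A effect being the smaller, with a median of -1.39 and a range from -3.06 for Mx1 to -0.25 for Ifitm1. Of all genes 0.0102% differed in the positive and 0.0662% in the negative direction. DESeq2 called 12 of the 45 and limma-voom 0, and without the third C362A control, the third C362A Cflar or the third Cflar-deficient embryo 15, 13 and 1 were called. Across the 45 genes the changes in the Cflar-deficient genotypes of the D387A and C362A sets, which have separate controls, correlated at 0.886 (Pearson) and 0.860 (Spearman), given as a description since genes are not independent.

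MEFs of the Cflar-deficient genotype showed no called change. Of the 45 genes 41 passed the filter on low counts, Oas1g, Oas3, Mx1 and Epsti1 being too low. None was called in either direction, where 0.0711% of all genes were called higher and 0% lower. At an unadjusted p under 0.05 there were 3, against 6.47% of all genes, and limma-voom and DESeq2 called 0. The median was -0.20, from -1.05 ± 0.39 (SE, adjusted p = 0.691) for Sp100 to 0.58 ± 0.47 (SE, adjusted p = 0.891) for Rsad2, with Helz2 nearest 0 at -0.01. For Isg15 the change was -0.84 (interval -1.70 to 0.01) and for Ifit1 -0.32 (interval -1.12 to 0.47). The effect in intestine minus that in MEFs was called positive for 22 of the 41 genes that passed the filter in MEFs (7.30% of all genes) and negative for 0 (8.01%), with a median of 1.81. The other 4 entered this fit through their intestinal reads and were not called. The differences were 3.87 for Isg15 (adjusted p = 0.00164), 2.42 for Ifitm1 (adjusted p = 4.74e-07) and 3.32 for Phf11d (adjusted p = 0.000239).

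Interferon ligands themselves were rare in these libraries. Of 21 ligand genes 4 had 10 or more reads in any library, and 10 had no read at all. Ifnb1, the type I interferon-β, had 12, 26 and 11 reads in the Fadd-deficient, 4, 2 and 8 in the Ifnar-deficient, 4, 8 and 5 in the C362A Mlkl and 37, 58 and 44 in the C362A Casp1 embryos. It had 0 reads in every control, Casp8 1xDA/1xDA, C362A Cflar and MEF library, 0, 0 and 1 in the Cflar-deficient and 1, 0 and 2 in the Casp1-deficient embryos, where the third embryo held the 2. A count of 0 allows up to 3 reads, or 0.0929 to 0.184 CPM at the TMM-scaled depths of these libraries, for counting error only. The type III interferon Ifnl2 had 16, 10 and 6 reads in the Fadd-deficient and 20, 22 and 22 in the C362A Casp1 embryos, and Ifnl3, a close copy of it, had 9, 18 and 8 and 19, 24 and 21. Ifng, the type II interferon, had 29, 30 and 35 reads in the C362A Mlkl embryos, and at most 4 in any other library, among them 1, 1 and 1 in C362A Casp1 embryos.

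**Figure D5:**
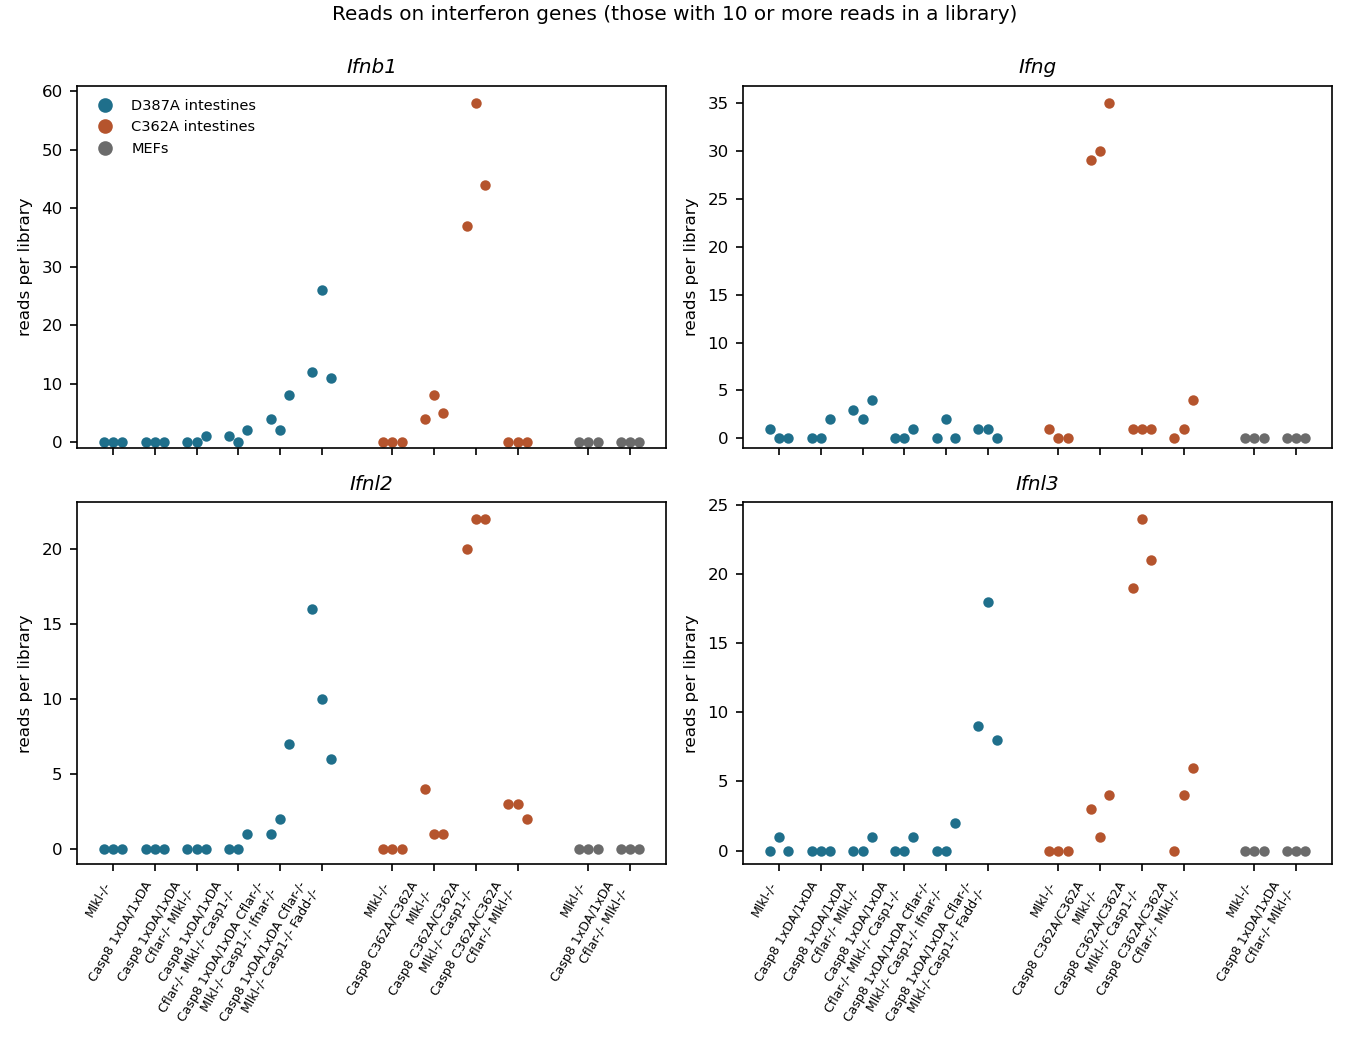
Reads per library for the 4 interferon genes with 10 or more reads in any library, by genotype. Ifnb1, Ifnl2 and Ifnl3 are highest in the C362A Casp1 embryos, at 37 to 58, 20 to 22 and 19 to 24 reads, and Ifng in the C362A Mlkl embryos at 29 to 35.

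Among the receptors, 0 of 6 were called higher in any mutant against its controls. Ifnlr1 and Il10rb, the chains of the type III receptor, fell in Cflar-deficient embryos, by 1.90 and 1.58 on the log2 scale, and in C362A Cflar embryos, by 1.82 and 1.43. None of the 3 JAK kinases was called in any mutant against its controls. Of the IRF factors, Irf5 at 1.37 and Irf7 at 1.32 were called in Cflar-deficient embryos, and both are named here after their values were seen. Irf7, which amplifies type I interferon, was at 3.59 in Ifnar-deficient, 3.54 in Fadd-deficient and 3.79 in C362A Mlkl embryos. The negative regulator Socs1 rose by 1.62 in Cflar-deficient, 2.19 in Ifnar-deficient and 2.77 in Fadd-deficient embryos, whereas Socs3 rose by 1.44 in the Cflar-deficient and was at 0.36 and -0.31, not called, in the other two. Of 12 nucleic acid sensors 7 were called higher in Cflar-deficient, 3 in Casp1-deficient (1 without the third embryo, a fit added after the data were seen), 8 in Ifnar-deficient, 8 in Fadd-deficient, 11 in C362A Mlkl and 9 each in C362A Casp1 and C362A Cflar embryos, beside the shares of all genes given for these comparisons above. Mavs, the adaptor of the RNA sensors, was called lower in Cflar-deficient (-1.42), C362A Mlkl (-1.23) and C362A Cflar embryos (-1.97). Zbp1, a sensor of Z-form nucleic acid, changed most of these in Cflar-deficient embryos, by 3.86. No pathway gene was called in MEFs.

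Markers of other cells moved with some of these results. Summed absorptive enterocyte markers fell from 44422 to 51252 CPM in D387A controls to 2367 to 4362 CPM in Cflar-deficient embryos, with 7 of 9 called lower, and stood at 47122 to 53504 CPM in Fadd-deficient embryos, with 0 of 9 called. Neutrophil markers were at 13.4 to 28.8 CPM in D387A controls, 45.7 to 146 CPM in Cflar-deficient embryos (6 of 10 called higher) and 40.1 to 68.1 CPM in Fadd-deficient embryos (1 of 10). T and NK cell markers were at 10.2 to 12.8, 22.7 to 34.7 and 12.2 to 16.4 CPM in those genotypes. In the C362A set neutrophil markers were at 17.0 to 35.4 CPM in controls, 383 to 481 CPM in C362A Mlkl, 97.8 to 148 CPM in C362A Casp1 and 210 to 275 CPM in C362A Cflar embryos. Of 14 macrophage markers 5 were called higher and 1 lower in Cflar-deficient embryos, 0 in Fadd-deficient embryos and 11, 4 and 11 higher in C362A Mlkl, C362A Casp1 and C362A Cflar embryos. T and NK cell markers of those 3 C362A genotypes and their controls, controls first, were at 11.9 to 14.3, 52.8 to 55.2, 17.0 to 17.6 and 38.3 to 54.5 CPM. The Fadd-deficient and C362A Casp1 embryos, in which most of the 45 genes were highest, had enterocyte markers at 47122 or more and 59687 or more CPM. These markers were at 54072 to 56033 CPM in Casp8 1xDA/1xDA, 23732 to 33762 CPM in Casp1-deficient and 27721 to 39970 CPM in Ifnar-deficient embryos. In the C362A set they were at 39000 to 61384 CPM in controls, 20151 to 24818 CPM in C362A Mlkl and 3473 to 10144 CPM in C362A Cflar embryos. The part of these cell types in the results on the 45 genes was not tested.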

How the data were processed

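RNA-seq was analysed from per-library gene tables of whole E18.5 intestines and MEFs. The deposited counts were made by the authors with GSNAP against GRCm38, keeping uniquely mapped reads on exons. Annotation and strand setting are not given in the sources used here, and the library kit and instrument differ between the labels and the methods, so reads from overlapping genes on opposite strands cannot be told apart. The RPKM printed here were recomputed from the counts and the gene widths that the authors deposited, on TMM-scaled library sizes, because the RPKM that the authors deposited use a library total that the files do not give.

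Each set (18, 12 and 6 libraries) was fitted separately with edgeR 4.0.16 in R 4.3.3, using filterByExpr (minimum count 10, minimum total 15), TMM, a prior count of 0.125 and the quasi-likelihood test with Benjamini-Hochberg adjustment over all genes that passed (18360, 19408 and 15465). SE is the log2 fold change over the square root of F. Differences between sets were interaction terms in fits of 30 or 24 libraries. Exact permutation of 3 against 3 cannot go below p = 0.1 and was not used. The scripts were tested on simulated data. In the D387A simulation (18011 genes) edgeR recovered all 200 genes changed 4-fold and made 2 false calls. That run checked the scripts only, and power for the genes of the module, at their own spread between replicates, was not tested.

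The 45 genes and the pathway, marker and named-gene lists were chosen with earlier results of these data known. The counts of the list of transcription factors are not reported here. Genes given in every library were 24 fixed by role, and in each comparison the largest rise, the largest fall and the change nearest 0 were also named. The replicates are labelled biological. Same-numbered libraries deviated together (all r above 0.1) only for Casp8 1xDA/1xDA with its controls (0.145, 0.238 and 0.221) and for the MEFs (0.308, 0.351 and 0.208), and a replicate block changed no call there. No 2 replicates were near-copies. Their variance over Poisson was 5.01 to 70.8 in 36 pairs. Of the gene IDs 52403 matched GENCODE M21, and 0 value columns were left unmapped. Each count was recomputed with other size factors, other filters, a prior count of 2, only the groups compared, a replicate block, each library left out, and by DESeq2 1.42.0 and the voom method of limma 3.58.1.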

Additional observations from a re-analysis of the deposited data

Results flagged for a closer look

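The effect of Casp1 loss differed between the D387A and C362A sets for 3 of the 45 genes by edgeR's interaction test, namely Ifitm3, Phf11d and Ifi27l2a, which were called lower with Casp1 loss in the D387A set and not called in the C362A set. Without the third Casp1-deficient embryo 22 genes differed.

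The effect of the Cflar-deficient genotype differed between intestine and MEFs for 22 of the 41 genes tested in MEFs, all higher in intestine by the same test. Isg15 (3.87) and Ifi27l2a (3.82) were among them.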

How the results depend on the processing

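Printed changes rest on 3 libraries per group, or 2 where a library was left out. Of 5943 gene-level values under other settings, 5727 kept their call or lack of one, 131 lost a call and 85 gained one, and the cause was not tested. With single libraries left out, 5016 of 5376 were kept. Another 4 changed sign with a call in at least 1 of the fits, each without the third Casp1-deficient embryo. Genes not called in either fit were counted as kept whatever their sign. With Casp1 loss in the D387A set, 33 genes lay above 0 with that embryo and 16 without it. On library totals without TMM scaling, 90 of 540 mean RPKM values moved by more than 1 SD between replicates, at 0.868 to 1.16 times the printed scale. With Casp1 loss in the D387A set the log2 fold changes lay between -1.30 (adjusted p = 6.61e-05) and 1.11 for Oas2, between -1.52 (adjusted p = 0.000619) and 0.91 for Oas3 and between -0.058 (adjusted p = 0.902) and 1.80 for Oasl1, by edgeR. The difference of Casp1 loss between sets lay between -1.34 (adjusted p = 0.00865) and 0.45 for Trim30a.

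Counts that moved by over 1.5 times were these. A fit of only the groups compared called 17 in the Casp1-deficient embryos, 5 higher with Casp1 loss, 0 with Ifnar1 loss and 5 with Fadd loss, all in the D387A set. Each of these comparisons holds the Casp1-deficient embryos, whose libraries differed most from each other, and the cause was not tested. Limma-voom called 8 higher with Casp1 loss, 27 with Ifnar1 loss and 14 for intestine against MEFs. Without the filter 20 were called with Ifnar1 loss and 16 in the difference between Cflar-deficient genotypes, where DESeq2 called 12. Cflar-deficient, Ifnar-deficient, Fadd-deficient and C362A mutants against controls stayed within 1.5 times of their counts in every setting.

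Leaving out single libraries gave 26 to 34 called higher in Cflar-deficient, 20 to 37 in Casp1-deficient, 41 to 42 in Ifnar-deficient and 41 to 43 in Fadd-deficient embryos, and 0 in Casp8 1xDA/1xDA embryos and MEFs. Casp1 loss in the D387A set gave 1 to 18 higher and 5 to 11 lower, Ifnar1 loss 0 to 39 and Fadd loss 24 to 43 higher. C362A Mlkl gave 44, C362A Casp1 43 and C362A Cflar 40 to 42. Casp1 loss in the C362A set gave 8 to 15 higher and 2 lower, and Cflar loss 8 to 19 lower. The differences gave 1 to 22 genes for Casp1 loss, 0 to 15 for the Cflar-deficient genotypes and 16 to 26 for intestine against MEFs.

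The replicate block called 1 gene in the difference between Cflar-deficient genotypes and moved no other count by over 1.5 times. Outside the Casp8 1xDA/1xDA and MEF comparisons the numbers did not pair the libraries.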
